A study of Homo sapiens with 18 samples.

Results

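The 10 genes described here encode tropomyosins (TPM1, TPM2, TPM3 and TPM4), actins (ACTA2 and ACTB), the non-muscle actinins (ACTN1 and ACTN4), cortactin (CTTN) and the GTPase RAC1. They were taken by symbol from a table of 59385 genes, and each symbol matched 1 row. The choice of genes was made knowing that TPM4 and ACTA2 moved after knockdown, so their levels in knockdown libraries are described and not tested. RNA was sequenced from LNCaP cells, an established human prostate cancer line, in 6 groups of 3 libraries. The groups were siNC (a control siRNA), siPDIA1 and siPDIA5, each collected 48 h or 96 h after transfection. All 6 groups received an siRNA with the lipid reagent RNAiMAX and were kept in medium with 10% fetal bovine serum, and no untransfected cells were included. PDIA1 (gene symbol P4HB) and PDIA5 are protein disulphide isomerases, which form and rearrange disulphide bonds in the endoplasmic reticulum. The series holds 1 cell line, and the siRNA sequences were not used here. Nothing in the labels tells whether the 3 libraries of each group were grown and transfected apart.

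Actin monomers join into filaments, and each of the other proteins acts on those filaments or on where they form. Tropomyosins lie along the filament as coiled coils and set which myosins and severing proteins reach it. Alpha-actinins crosslink neighbouring filaments, cortactin holds branched filaments made by the Arp2/3 complex, and RAC1 in its GTP-bound state turns on the WAVE complex, which starts that branching at the cell edge. ACTB makes the actin found in most cells, while ACTA2 makes the smooth muscle actin that contractile stromal cells of the prostate are known for. Many of these genes are known targets of the factor SRF, which binds a DNA element called the CArG box and is switched on when free actin monomer runs low.

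The values were RPKM (reads per kilobase of gene, scaled for library depth). Levels set side by side between genes depend on the gene length used, which may exceed that of the transcripts present. An estimated 29.2 M to 43.9 M reads on genes lay behind each library. Differences were computed on log2(RPKM + 1), which understates the change of genes at low RPKM, and tested with limma over the 11685 genes with a mean of at least 1 RPKM. A gene was called when its p, adjusted over all tested genes by Benjamini and Hochberg, was under 0.05. Each siRNA left 8.58% to 13.3% of the siNC level of its own target. All 7 LNCaP markers had a mean of at least 1 RPKM, against 1 of 7 smooth muscle markers, 1 of 7 fibroblast markers, 0 of 4 basal markers and 0 of 7 skeletal and cardiac muscle markers. Replicate 1 of siPDIA1 at 96 h deviated most from its group mean (root mean square over genes 0.247 on the log2 scale, at most 0.179 elsewhere). Results of siPDIA1 at 96 h whose call changes without it are given both ways. At each time siPDIA1 and siPDIA5 were set against the same siNC libraries, so their 2 differences from siNC are not independent.

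**Figure D1:**
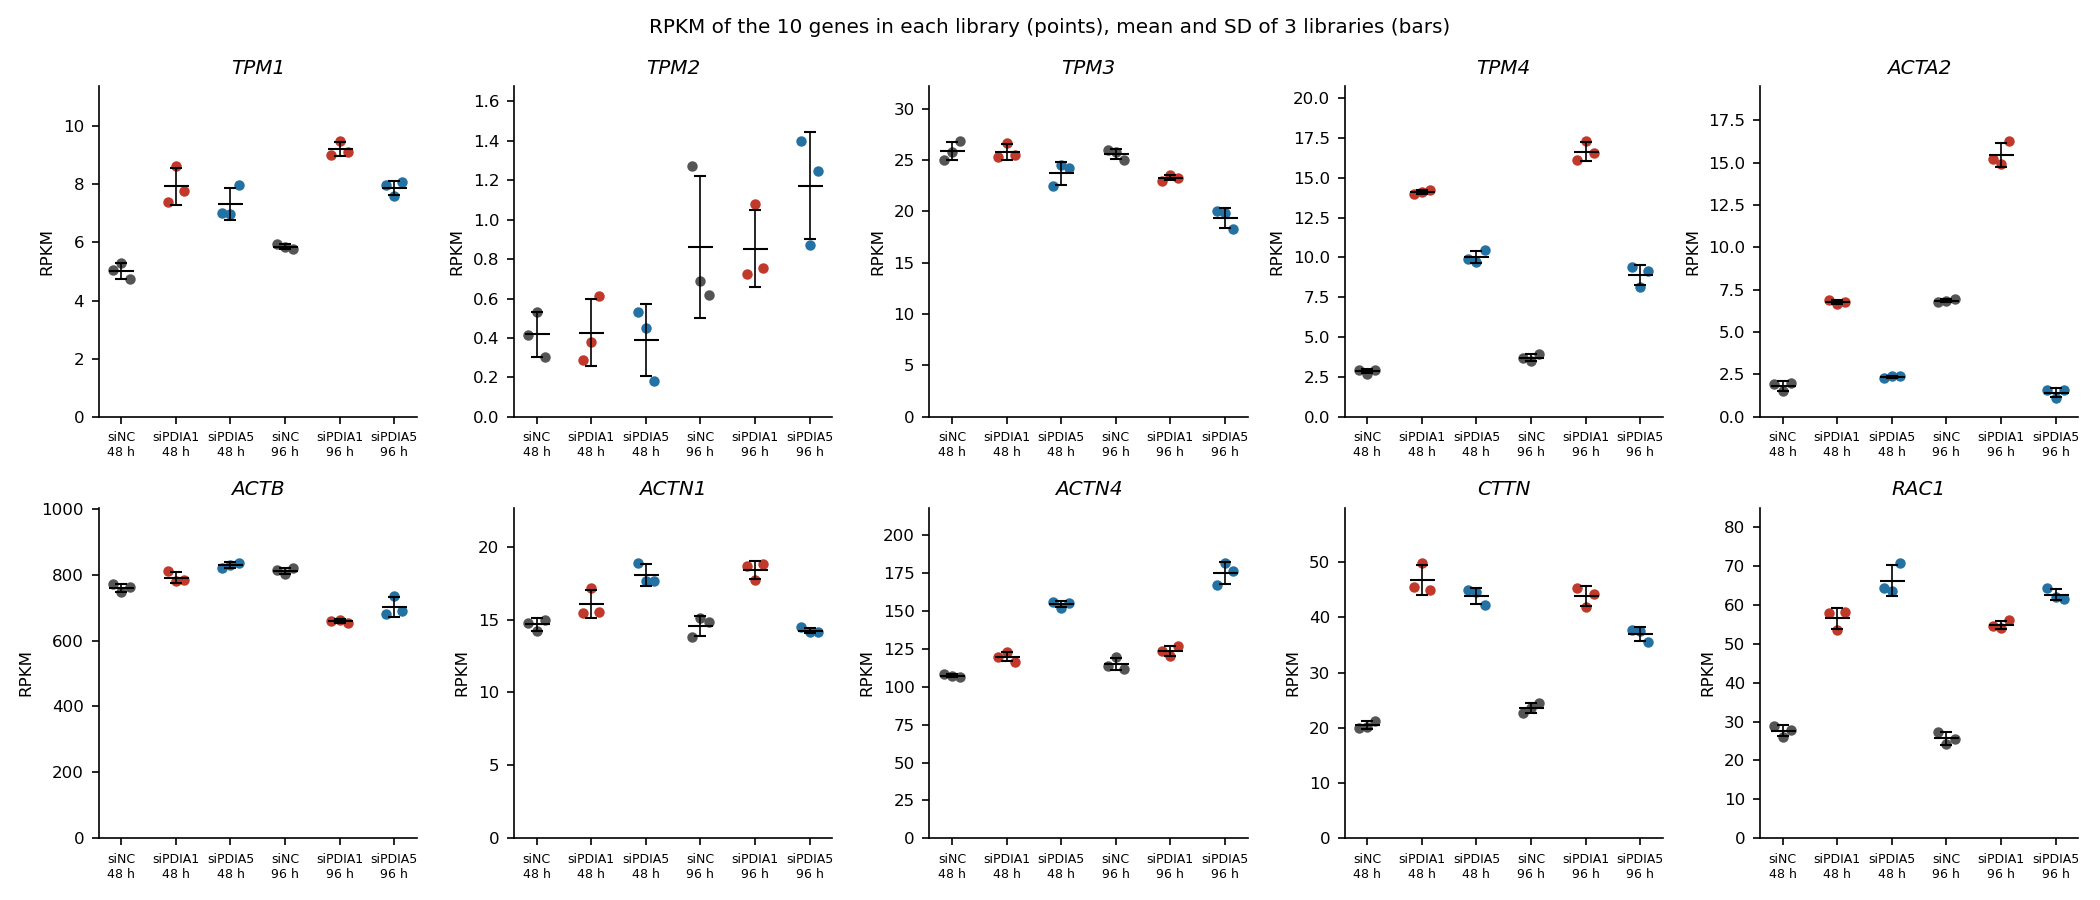
Level (RPKM, vertical axis from 0) of the 10 genes in each of the 18 libraries, by group on the horizontal axis. Points are libraries, bars the mean and SD of 3 libraries. TPM4, CTTN and RAC1 lay above siNC in every knockdown library, and ACTA2 was highest after siPDIA1 at 96 h (15.5 RPKM) and lowest after siPDIA5 at 96 h (1.43 RPKM).

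Transcripts of TPM4, a tropomyosin of non-muscle cells, were several times as abundant after either knockdown as in siNC. TPM4 (ENSG00000167460.17, chromosome 19, 16067021 to 16103005, plus strand, GENCODE 29 on GRCh38) lay at 2.91, 2.70 and 2.94 RPKM in the siNC libraries at 48 h. The siPDIA1 libraries at that time held 13.9, 14.1 and 14.2 RPKM and the siPDIA5 libraries 9.92, 9.69 and 10.4 RPKM. The 3 groups did not overlap, and siPDIA1 was the highest. At 96 h TPM4 lay at 3.72, 3.48 and 3.95 RPKM in siNC, at 16.1, 17.3 and 16.5 RPKM after siPDIA1, and at 9.37, 8.15 and 9.17 RPKM after siPDIA5. The order of the groups was that of 48 h, again without overlap. The ratio of mean RPKM to siNC was 4.93 at 48 h and 4.48 at 96 h for siPDIA1, and 3.51 and 2.39 for siPDIA5. On the log2(RPKM + 1) scale these differences were 1.97 ± 0.06 (SE) and 1.90 ± 0.06 for siPDIA1, and 1.52 ± 0.06 and 1.07 ± 0.06 for siPDIA5. The difference between siPDIA1 and siPDIA5 was 0.45 ± 0.06 at 48 h and 0.83 ± 0.06 at 96 h. Within siNC, TPM4 rose from 48 h to 96 h by 0.29 ± 0.06 (limma adjusted p = 0.00209, 3 of 3 libraries higher), although in a fit of the siNC libraries alone the adjusted p was 0.0721. These siNC libraries were also the baseline of the TPM4 moves known at the choice of genes. This comparison is therefore not independent of that choice.

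The RefSeq table used here holds 3 starts for TPM4, and the gene-level values cannot say from which of them the transcripts came. The stretch before the first start is shown because it is the one of the 3 in which a full CArG box was found. It spans chr19:16067307-16067506 of GRCh38.p14 (plus strand), from base -231 to base -32 before the start, trimmed to leave out annotated exons. Capitals mark the CArG box at -173 to -164.
TPM4: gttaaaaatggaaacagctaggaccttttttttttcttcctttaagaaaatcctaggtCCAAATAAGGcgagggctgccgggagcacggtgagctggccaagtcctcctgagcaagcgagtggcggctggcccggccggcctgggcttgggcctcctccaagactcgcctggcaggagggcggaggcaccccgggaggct
A full CArG box, searched on both strands, was present in the 250 bases before 1.16% of the 35116 starts in the RefSeq table (407 starts), so the match is uncommon but describes the letters alone. Among the 10 genes, 7 had starts in the table (16 in all), and ACTB, CTTN and RAC1 had none.

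The other tropomyosins moved less than TPM4. TPM1 (ENSG00000140416.23, chromosome 15, 63042632 to 63071915, plus strand), the alpha-tropomyosin gene, lay at 5.05, 5.28 and 4.73 RPKM in siNC at 48 h, at 7.40, 8.64 and 7.76 RPKM after siPDIA1 and at 7.02, 6.97 and 7.98 RPKM after siPDIA5. Both knockdown groups lay wholly above siNC and overlapped each other. At 96 h TPM1 was at 5.94, 5.83 and 5.79 RPKM in siNC, at 9.03, 9.49 and 9.12 RPKM after siPDIA1 and at 7.98, 7.61 and 8.06 RPKM after siPDIA5, with no overlap among the 3 groups. TPM1 rose after siPDIA1 by 0.57 ± 0.06 (log2 ± SE) at 48 h and 0.57 ± 0.06 at 96 h (limma adjusted p = 3.22e-06 and 1.59e-06). After siPDIA5 it rose by 0.47 ± 0.06 and 0.37 ± 0.06 (limma adjusted p = 1.46e-05 and 9.00e-05).

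TPM3 (ENSG00000143549.21, chromosome 1, 154155304 to 154194648, minus strand), the most abundant of the 4 tropomyosin transcripts in every group, fell after siPDIA5 at 96 h. Its siNC libraries at 96 h lay at 26.0, 25.8 and 25.0 RPKM, those of siPDIA1 at 23.0, 23.5 and 23.3 RPKM and those of siPDIA5 at 20.0, 19.8 and 18.3 RPKM. The groups did not overlap. TPM3 fell by 0.38 ± 0.05 (log2 ± SE) after siPDIA5 at 96 h (limma adjusted p = 4.22e-06). At 48 h the siNC, siPDIA1 and siPDIA5 means were 25.9 ± 0.916, 25.8 ± 0.778 and 23.7 ± 1.12 RPKM (SD, n = 3). The siPDIA1 difference at 48 h did not pass the test (limma adjusted p = 0.967, 95% interval -0.10 to 0.10).

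Smaller TPM3 calls rested on the choice of libraries and scaling. TPM3 fell by 0.13 ± 0.05 after siPDIA1 at 96 h (limma adjusted p = 0.0314), and this call was lost without siNC replicate 1 (0.0787) or 2 (0.0614) and without siPDIA1 replicate 1 (0.0874), 2 (0.0545) or 3 (0.0665). It fell by 0.12 ± 0.05 after siPDIA5 at 48 h (limma adjusted p = 0.0435), and that call was lost without siNC replicate 2 (0.0811) or 3 (0.160) or siPDIA5 replicate 1 (0.189). With each library centred on its median the 48 h difference after siPDIA5 was -0.02 (limma adjusted p = 0.805), and with quantile normalization the siPDIA1 difference at 96 h was -0.06 (limma adjusted p = 0.310). Both calls were also lost with no filter (0.0507 for siPDIA1 and 0.0767 for siPDIA5) and without the other groups (0.0734 and 0.131), and the siPDIA1 call with median centring (0.0883). The siPDIA5 call was further lost with quantile normalization (0.0646), without the trend (0.0624) and with protein-coding genes alone (0.0508). TPM3 has 8 pseudogenes in the table, of which TPM3P9 reached a mean of 1 RPKM. TPM3P9 was at 1.60 ± 0.0775 and 1.65 ± 0.155 RPKM after siPDIA5 at 48 h and 96 h, against 3.16 ± 0.460 and 2.85 ± 0.413 RPKM in siNC (SD, n = 3), and how reads that match both were counted is not stated in the labels.

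TPM2 (ENSG00000198467.16, chromosome 9, 35681992 to 35690121, minus strand), the beta-tropomyosin gene of muscle, was near the floor of the table. Its libraries ranged from 0.183 to 0.614 RPKM at 48 h and from 0.618 to 1.40 RPKM at 96 h, and its mean over all libraries kept it out of the test. Neither knockdown separated from siNC at either time. The 95% interval of the difference that reached farthest from 0 was that of siPDIA5 at 96 h, -0.10 to 0.56 (log2).

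With TPM4 higher and TPM3 level or lower, the make-up of the tropomyosin transcripts shifted. TPM4 held 8.35% ± 0.429 of the summed tropomyosin RPKM in siNC at 48 h (SD, n = 3), 29.2% ± 0.797 after siPDIA1 and 24.2% ± 0.804 after siPDIA5. At 96 h its shares were 10.3% ± 0.744, 33.3% ± 0.363 and 23.8% ± 1.34 in the same order. TPM3 held 75.7% ± 1.19 in siNC at 48 h against 53.5% ± 0.448 and 57.2% ± 1.44 after siPDIA1 and siPDIA5, and 71.0% ± 0.859, 46.6% ± 0.713 and 51.9% ± 2.36 at 96 h. The ratio of TPM4 to TPM1 lay between 0.512 and 0.682 in the siNC libraries and between 1.07 and 1.89 in the knockdown libraries, so that the RPKM of TPM4 passed that of TPM1 in each of them. The summed RPKM was 34.2 ± 0.720 in siNC, 48.3 ± 1.47 after siPDIA1 and 41.5 ± 1.47 after siPDIA5 at 48 h. It was 36.0 ± 0.807, 50.0 ± 1.29 and 37.3 ± 1.27 at 96 h, where siPDIA5 overlapped siNC. These shares include TPM4 and are given as a description. Shares and ratios between genes also depend on the lengths behind RPKM, which the sources used do not give. Merged GENCODE 29 exons span 12876 bases for TPM1 and 8632 for TPM4. The deposited IDs of both genes carry later versions than those of GENCODE 29, so other lengths may have been used.

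**Figure D2:**
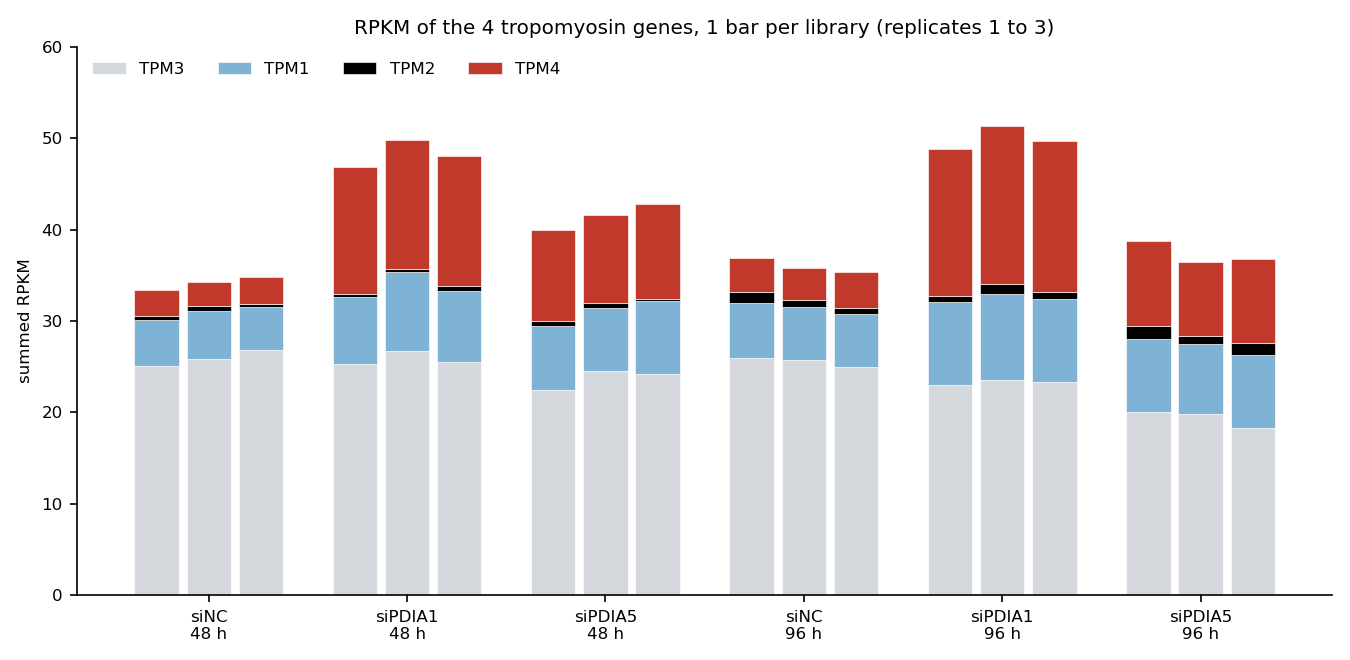
Summed RPKM of the 4 tropomyosin genes (vertical axis from 0), with 1 stacked bar for each of the 18 libraries. The TPM4 part made up 8.35% of the bar in siNC and 29.2% after siPDIA1 at 48 h, and the TPM3 part was the largest in every group.

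ACTA2, the smooth muscle alpha-actin gene, differed between the 2 knockdowns in direction at 96 h. ACTA2 (ENSG00000107796.13, chromosome 10, 88935074 to 88991339, minus strand) lay at 1.92, 1.51 and 2.02 RPKM in siNC at 48 h, at 6.89, 6.66 and 6.76 RPKM after siPDIA1 and at 2.27, 2.38 and 2.42 RPKM after siPDIA5. Both knockdown groups lay above siNC, siPDIA5 narrowly so. At 96 h siNC itself was higher, at 6.76, 6.83 and 6.94 RPKM, while siPDIA1 lay at 15.2, 15.0 and 16.3 RPKM and siPDIA5 at 1.61, 1.12 and 1.56 RPKM. All 3 siPDIA1 libraries were above siNC at that time and all 3 siPDIA5 libraries below it. The ratio of means to siNC was 3.72 at 48 h and 2.26 at 96 h for siPDIA1, and 1.30 and 0.209 for siPDIA5. In log2 units the differences were 1.47 ± 0.08 and 1.07 ± 0.08 for siPDIA1, and 0.26 ± 0.08 and -1.70 ± 0.08 for siPDIA5 (± SE). At 96 h the mean after siPDIA1 was 10.8 times that after siPDIA5.

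The siNC libraries were also the baseline of the ACTA2 moves known at the choice of genes. A p from them is therefore not independent of that choice. In siNC the rise of ACTA2 from 48 h to 96 h was 1.48 ± 0.08 (log2 ± SE, limma adjusted p = 1.97e-08, 3 of 3 libraries higher). The siPDIA5 libraries did not show it: they went from 2.36 ± 0.0789 RPKM at 48 h to 1.43 ± 0.267 RPKM at 96 h (SD, n = 3), and the lowest group of all 6 was siPDIA5 at 96 h, which overlapped siNC at 48 h. The siPDIA1 libraries at 48 h, with a mean of 6.77 RPKM, overlapped siNC at 96 h, with 6.84 RPKM. An estimated 106 to 1867 reads lay behind ACTA2 in each library. Every value of ACTA2 stayed far under ACTB: the ratio of ACTB to ACTA2 was 42.6 ± 2.25 after siPDIA1 at 96 h and 506 ± 128 after siPDIA5 at 96 h (SD, n = 3).

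The stretch before the second RefSeq start of ACTA2 is shown because it holds SRF-type elements that differ from the full CArG box at 1 place. It spans chr10:88952774-88953023 of GRCh38.p14 (minus strand), the 250 bases up to the start. Capitals mark, in order, the TEAD motif GGAATG at -183 to -178 and CArG boxes with 1 G or C in the core at -121 to -112 and -71 to -62.
ACTA2: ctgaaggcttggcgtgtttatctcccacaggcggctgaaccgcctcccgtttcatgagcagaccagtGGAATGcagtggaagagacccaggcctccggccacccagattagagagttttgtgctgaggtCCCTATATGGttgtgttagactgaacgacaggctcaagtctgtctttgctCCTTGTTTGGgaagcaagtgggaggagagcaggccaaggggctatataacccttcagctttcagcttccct
Such CArG boxes with 1 G or C were found before 5.96% of the starts in the table (2093) and GGAATG, on either strand, before 11.9% (4175). Elements of the same kind also stood before both ACTN4 starts, at -101 to -92 and at -32 to -23. None of the motifs overlapped another here, and the stretch before the first ACTA2 start had none of the 3.

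Values of other genes that could bear on ACTA2 are given beside it. Exons of FAS, which encodes a death receptor and is read from the opposite strand, share 380 bases with ACTA2, which is 12.8% of its exon length. FAS lay at 1.43 ± 0.152, 2.70 ± 0.128 and 1.61 ± 0.432 RPKM in siNC, siPDIA1 and siPDIA5 at 48 h and at 2.06 ± 0.173, 2.78 ± 0.509 and 1.57 ± 0.295 RPKM at 96 h (SD, n = 3). The libraries were stranded, but the strand setting of the counting is not stated in the labels. The antisense gene ACTA2-AS1 reached at most 0.0336 RPKM. The summed RPKM of the 7 smooth muscle markers moved in the same direction as ACTA2 at 96 h: it ranged from 4.50 to 4.85 in siNC, from 6.09 to 6.64 after siPDIA1 and from 2.33 to 2.83 after siPDIA5. At 48 h the ranges were 4.48 to 5.13, 5.46 to 5.91 and 3.58 to 4.33. There the siPDIA5 sum lay below siNC, while ACTA2 after siPDIA5 lay above it. The siNC sums of 48 h and 96 h overlapped, while ACTA2 rose in siNC. The defining markers DES and CNN1 were at 0 in 17 of 18 libraries, and MYH11 reached at most 0.0860 RPKM. SMTN was the 1 marker with a mean of at least 1 RPKM (4.26 RPKM) and made up most of the summed RPKM of the markers. Their part in the ACTA2 result was not tested, and in bulk RNA fewer cells of a type and less RNA per cell cannot be told apart.

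ACTG2 and MYL9, which also serve smooth muscle contraction, are plotted with ACTA2; the pair was chosen for this after the values were seen, and not every gene of that kind followed ACTA2. TAGLN (transgelin), a smooth muscle gene also too low to be tested, lay at 0.574 ± 0.150 RPKM after siPDIA5 at 96 h against 0.373 ± 0.0347 in siNC and 1.07 ± 0.0735 after siPDIA1 (SD, n = 3). All 3 siPDIA5 libraries of TAGLN were above siNC at that time, where those of ACTA2 were below it. ACTG2, the enteric smooth muscle actin, was too low to be tested and lay at 0.523 ± 0.203 RPKM in siNC, 1.16 ± 0.0507 after siPDIA1 and 0.0278 ± 0.0267 after siPDIA5 at 96 h (SD, n = 3). MYL9, a regulatory light chain of smooth muscle and non-muscle myosin, rose in siNC from 48 h to 96 h by 1.39 ± 0.11 (log2 ± SE, limma adjusted p = 1.38e-06). It fell by 1.26 ± 0.11 after siPDIA5 at 96 h (limma adjusted p = 1.32e-07) and rose by 0.45 ± 0.11 after siPDIA1 at 48 h (limma adjusted p = 0.00560). Its difference after siPDIA1 at 96 h was 0.22 ± 0.11 and did not pass the test (limma adjusted p = 0.114).

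**Figure D3:**
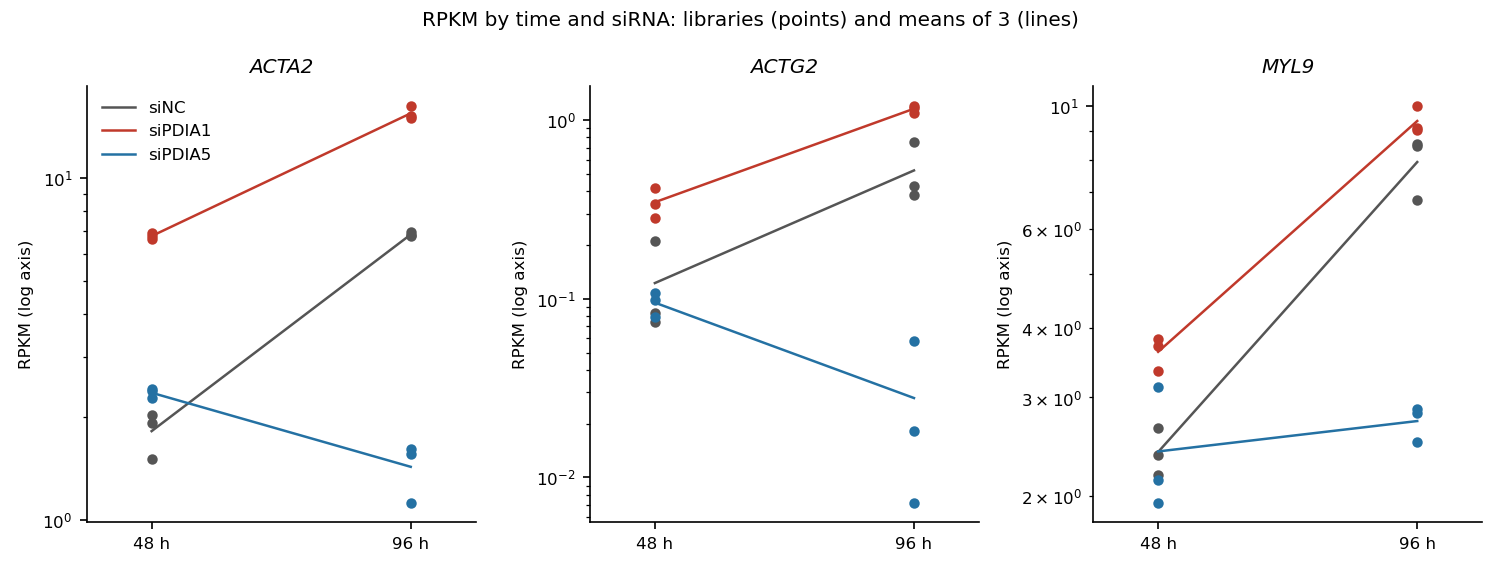
RPKM on a log axis of ACTA2, ACTG2 and MYL9 at 48 h and 96 h, with points for libraries and lines joining the means of 3, in siNC, siPDIA1 and siPDIA5. At 96 h the siPDIA5 libraries of ACTA2 (mean 1.43 RPKM) lay below those of siNC (6.84) and siPDIA1 (15.5).

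ACTB, the beta-actin gene often taken as a constant reference, was the most abundant of the 10 and was lower after both knockdowns at 96 h. ACTB (ENSG00000075624.17, chromosome 7, 5527147 to 5563784, minus strand) lay at 815, 802 and 820 RPKM in siNC at 96 h, at 659, 664 and 652 RPKM after siPDIA1 and at 679, 735 and 690 RPKM after siPDIA5. All 6 knockdown libraries were below all 3 of siNC. ACTB fell by 0.30 ± 0.04 (log2 ± SE) after siPDIA1 and by 0.21 ± 0.04 after siPDIA5 at 96 h (limma adjusted p = 7.78e-06 and 0.000180). At 48 h the libraries lay at 771, 747 and 764 RPKM in siNC, 811, 780 and 784 RPKM after siPDIA1 and 821, 830 and 836 RPKM after siPDIA5. There the knockdown libraries were the higher ones. The siPDIA5 difference of 0.12 ± 0.04 at 48 h passed (limma adjusted p = 0.0128) but not without siNC replicate 2 (0.0525) or with no filter (0.0613), and under quantile normalization it was 0.06 (0.430). That of siPDIA1 at 48 h did not pass (0.06 ± 0.04, limma adjusted p = 0.270, 95% interval -0.02 to 0.14). The change of effect from 48 h to 96 h was -0.36 ± 0.05 for siPDIA1 and -0.34 ± 0.05 for siPDIA5 (limma adjusted p = 0.000700 and 0.000442). Under quantile normalization the latter was -0.24 (0.0568).

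ACTG1, the second cytoplasmic actin and the only other actin that reached the test, fell in all 4 comparisons with siNC. It fell by 0.24 and 0.46 (log2) after siPDIA1 at 48 h and 96 h and by 0.28 and 0.43 after siPDIA5 (limma adjusted p = 0.000224, 1.31e-07, 2.39e-05 and 1.77e-07). Actin transcripts summed over 6 genes lay at 1323 ± 19.9 RPKM in siNC at 96 h, 1041 ± 2.11 after siPDIA1 and 1076 ± 43.4 after siPDIA5 (SD, n = 3). At 48 h the sums were 1285 ± 19.1, 1243 ± 21.5 and 1261 ± 14.8 RPKM, and those of siPDIA5 overlapped siNC. The ACTA2 share of these sums ran from 0.134% after siPDIA5 at 96 h to 1.49% after siPDIA1 at 96 h, so ACTB and ACTG1 set the total. Of 11 ACTB pseudogenes, ACTBP2 reached a mean of 1 RPKM and at most 4.20 RPKM in any library.

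ACTN4 rose after both knockdowns at both times, more after siPDIA5, and ACTN1 rose in 2 of the 4 comparisons with siNC. ACTN4 (ENSG00000130402.13, chromosome 19, 38647649 to 38731583, plus strand), the more abundant of the pair, lay at 109, 107 and 107 RPKM in siNC at 48 h, at 120, 123 and 117 RPKM after siPDIA1 and at 156, 152 and 155 RPKM after siPDIA5. The groups did not overlap, and siPDIA5 was highest. At 96 h ACTN4 lay at 114, 119 and 112 RPKM in siNC, 123, 121 and 127 RPKM after siPDIA1 and 167, 182 and 176 RPKM after siPDIA5, in the same order. ACTN4 rose after siPDIA5 by 0.52 ± 0.04 (log2 ± SE) at 48 h and 0.60 ± 0.04 at 96 h (limma adjusted p = 4.31e-08 and 4.67e-09). It rose after siPDIA1 by 0.16 ± 0.04 at 48 h (limma adjusted p = 0.00615; 0.25 under quantile normalization). At 96 h the siPDIA1 difference was 0.10 ± 0.04 (limma adjusted p = 0.0418; 0.22 under quantile normalization). That call was lost without siNC replicate 1 (0.0905) or 3 (0.148) and without siPDIA1 replicate 1 (0.0801) or 3 (0.148). It was also lost with no filter (0.0734), with the replicate block (0.0556), without the other groups (0.173), without the trend (0.0774) and with protein-coding genes alone (0.0507).

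ACTN1 (ENSG00000072110.16, chromosome 14, 68874143 to 68979440, minus strand), the other non-muscle actinin, rose after siPDIA5 at 48 h and after siPDIA1 at 96 h. Its libraries lay at 14.8, 14.2 and 15.0 RPKM in siNC at 48 h, at 15.5, 17.1 and 15.5 RPKM after siPDIA1 and at 18.9, 17.6 and 17.6 RPKM after siPDIA5. At 96 h they lay at 13.8, 15.1 and 14.8 RPKM in siNC, at 18.7, 17.7 and 18.8 RPKM after siPDIA1 and at 14.5, 14.1 and 14.1 RPKM after siPDIA5. The siPDIA5 libraries overlapped siNC at 96 h and lay above it at 48 h. ACTN1 rose by 0.28 ± 0.05 (log2 ± SE) after siPDIA5 at 48 h and by 0.32 ± 0.05 after siPDIA1 at 96 h (limma adjusted p = 0.000273 and 8.80e-05). The siPDIA5 difference at 96 h was -0.03 ± 0.05 (limma adjusted p = 0.674, 95% interval -0.14 to 0.08), and the siPDIA1 difference at 48 h was 0.12 ± 0.05 (limma adjusted p = 0.0775, 95% interval 0.01 to 0.23). The effect of siPDIA5 changed between the times by -0.31 ± 0.07 (limma adjusted p = 0.00673). ACTN4 was 7.33 ± 0.216 times as abundant as ACTN1 in siNC at 48 h and 12.3 ± 0.682 times after siPDIA5 at 96 h (SD, n = 3).

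The stretch before the third of 4 RefSeq starts of ACTN1 is shown because it holds the only other full CArG box among the 16 starts. It spans chr14:68977655-68977816 of GRCh38.p14 (minus strand), from base -250 to base -89, trimmed to leave out annotated exons. Capitals mark the CArG box at -171 to -162 and, on the other strand, the TEAD motif at -154 to -149, which reads CATTCC here.
ACTN1: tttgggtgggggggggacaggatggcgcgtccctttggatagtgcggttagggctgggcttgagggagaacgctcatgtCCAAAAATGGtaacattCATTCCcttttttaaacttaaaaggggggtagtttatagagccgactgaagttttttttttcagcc
The full CArG box thus stood before 1 start each of TPM4 and ACTN1. SRF itself lay at 19.0 ± 0.523, 26.1 ± 1.08 and 22.6 ± 0.872 RPKM in siNC, siPDIA1 and siPDIA5 at 48 h and at 19.1 ± 0.552, 23.0 ± 0.481 and 15.7 ± 0.223 RPKM at 96 h (SD, n = 3). SRF rose after siPDIA1 by 0.44 and 0.26 (log2) at 48 h and 96 h and after siPDIA5 by 0.24 at 48 h, and fell by 0.27 after siPDIA5 at 96 h (limma adjusted p = 1.16e-06, 0.000156, 0.000284 and 7.35e-05). Whether SRF had a part in the levels of TPM4, ACTA2 or ACTN1 was not tested, and its RNA level does not measure its activity.

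CTTN and RAC1, which act where branched filaments form, rose after both siRNAs at both times. CTTN (ENSG00000085733.16, chromosome 11, 70398404 to 70436584, plus strand) lay at 20.0, 20.2 and 21.3 RPKM in siNC at 48 h, at 45.4, 49.9 and 45.0 RPKM after siPDIA1 and at 45.0, 44.5 and 42.3 RPKM after siPDIA5. At 96 h it lay at 22.7, 23.5 and 24.5 RPKM in siNC, 45.3, 41.8 and 44.3 RPKM after siPDIA1 and 37.7, 37.6 and 35.5 RPKM after siPDIA5. No knockdown library reached down to siNC. CTTN rose by 1.15 ± 0.05 and 0.87 ± 0.05 (log2 ± SE) after siPDIA1 and by 1.06 ± 0.05 and 0.63 ± 0.05 after siPDIA5 (limma adjusted p = 1.20e-10, 1.75e-09, 2.31e-10 and 4.08e-08). The rise after siPDIA5 was smaller at 96 h than at 48 h by 0.44 ± 0.07 (limma adjusted p = 0.000567). For siPDIA1 the change was -0.28 ± 0.07 (limma adjusted p = 0.0275), and it did not pass without siNC replicate 1 (0.0635) or 2 (0.0606) or siPDIA1 replicate 2 (0.0770) of 48 h, nor without siNC replicate 3 (0.0762) or siPDIA1 replicate 2 (0.0719) or 3 (0.0524) of 96 h. It did not pass with no filter (limma adjusted p = 0.0560) or without the siPDIA5 groups (0.0616).

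RAC1 (ENSG00000136238.18, chromosome 7, 6374523 to 6403977, plus strand) lay at 29.0, 26.1 and 27.7 RPKM in siNC at 48 h, at 57.9, 53.4 and 58.2 RPKM after siPDIA1 and at 64.3, 63.5 and 70.8 RPKM after siPDIA5. At 96 h the libraries held 27.3, 24.1 and 25.6 RPKM in siNC, 54.4, 54.1 and 56.0 RPKM after siPDIA1 and 64.2, 62.1 and 61.6 RPKM after siPDIA5. The groups did not overlap at either time, with siPDIA5 the highest. RAC1 rose by 1.01 ± 0.06 and 1.07 ± 0.06 (log2 ± SE) after siPDIA1 and by 1.23 ± 0.06 and 1.26 ± 0.06 after siPDIA5 (limma adjusted p = 1.93e-09, 4.99e-10, 1.37e-10 and 4.39e-11). The effect at 96 h differed from that at 48 h by 0.06 (95% interval -0.10 to 0.23) for siPDIA1 and by 0.02 (-0.14 to 0.19) for siPDIA5, and neither difference passed (limma adjusted p = 0.742 and 0.873). Of 9 RAC1 pseudogenes, RAC1P2 reached a mean of 1 RPKM and at most 4.25 RPKM in any library.

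**Figure D4:**
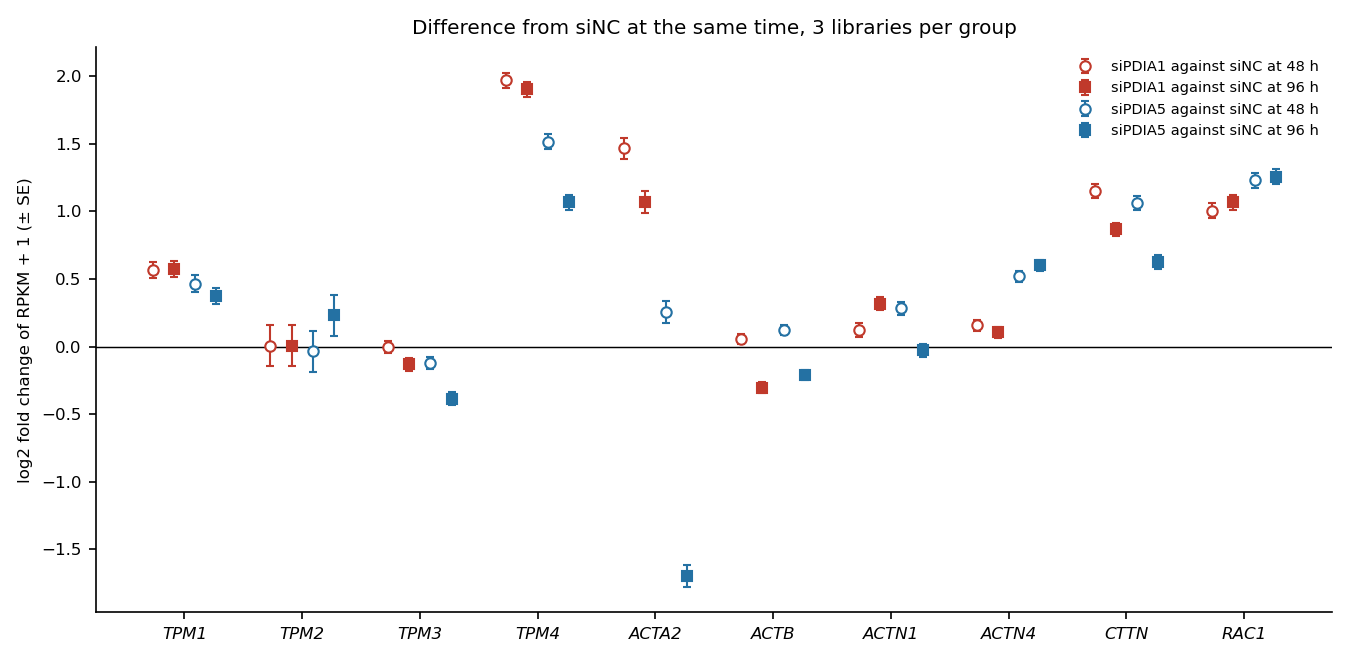
Difference from siNC at the same time on the log2(RPKM + 1) scale (vertical axis, ± SE) for the 10 genes, with open circles for 48 h and filled squares for 96 h. RAC1 lay between 1.01 and 1.26 in the 4 comparisons, while ACTA2 ran from 1.47 after siPDIA1 at 48 h to -1.70 after siPDIA5 at 96 h. TPM2 was too low to be tested, and TPM4 and ACTA2 are shown as a description.

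Apart from TPM4, ACTA2 and the untested TPM2, 7 of the genes entered the test. After siPDIA1 at 48 h, 4 of the 7 rose and 0 fell, where 33.4% of all tested genes were called (16.0% higher and 17.4% lower). At 96 h, 5 rose and 2 fell, against 45.3% of all genes called (20.1% higher and 25.2% lower), and 5 of the 7 were called without siPDIA1 replicate 1. After siPDIA5, 6 rose and 1 fell at 48 h, against 45.8% of all genes (16.6% higher and 29.2% lower). At 96 h, 4 rose and 2 fell after siPDIA5, against 51.1% of all genes (20.8% higher and 30.3% lower). TPM1, ACTN4, CTTN and RAC1 rose in all 4 comparisons, although the ACTN4 call after siPDIA1 at 96 h (limma adjusted p = 0.0418) was lost in 9 alternative settings. The median difference of all genes in the 4 comparisons lay between -0.09 and -0.01 (log2). The median of the 7 genes was 0.16 and 0.32 after siPDIA1 and 0.47 and 0.37 after siPDIA5 at 48 h and 96 h. The 7 genes too were chosen with earlier results of these data known. Their counts and medians, here and in the comparisons that follow, are therefore not independent of that choice. Their means were 7.20 to 759 RPKM, while the tested genes reach down to 1 RPKM, where the log2(RPKM + 1) scale understates changes.

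Set directly against each other, the 2 knockdowns differed in 3 of the 7 genes at 48 h, where 41.2% of all genes were called (26.3% higher and 14.9% lower after siPDIA1). ACTN1, ACTN4 and RAC1 were all lower after siPDIA1 than after siPDIA5, by -0.16 ± 0.05, -0.36 ± 0.04 and -0.23 ± 0.06 (log2 ± SE, limma adjusted p = 0.0175, 2.67e-06 and 0.00386). The ACTN1 call at 48 h was lost without siPDIA1 replicate 1 (0.0756) or 3 (0.0735) or siPDIA5 replicate 1 (0.0788) and in a fit of those 2 groups alone (0.0659), and its difference was -0.26 with median centring. TPM3 (0.12 ± 0.05, limma adjusted p = 0.0533) passed without siPDIA5 replicate 2 (0.0479) and with quantile normalization (0.030), and ACTB (-0.07 ± 0.04, 0.169) passed with median centring (-0.16, 0.00765). With quantile normalization the ACTB difference turned sign, to 0.0674. CTTN differed by 0.09 (95% interval -0.02 to 0.19) and TPM1 by 0.10 (-0.03 to 0.23), and neither passed (limma adjusted p = 0.180 and 0.206).

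At 96 h, 6 of the 7 genes differed between the knockdowns, against 48.5% of all genes (27.7% higher and 20.9% lower after siPDIA1). ACTN4 and RAC1 were lower after siPDIA1 than after siPDIA5, by -0.50 ± 0.04 and -0.19 ± 0.06 (limma adjusted p = 5.63e-08 and 0.0101). ACTN1, TPM3, CTTN and TPM1 were higher after siPDIA1, by 0.35 ± 0.05, 0.25 ± 0.05, 0.24 ± 0.05 and 0.20 ± 0.06 (limma adjusted p = 3.37e-05, 0.000311, 0.000902 and 0.0128). The TPM1 call did not pass without siPDIA5 replicate 2 (0.0518). ACTB differed by -0.09 ± 0.04 (limma adjusted p = 0.0580) and passed without siPDIA5 replicate 1 (0.0397).

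Time alone, in siNC at 96 h against 48 h, changed 2 of the 7 genes, where 24.3% of all genes were called (11.0% higher and 13.3% lower). TPM1 rose by 0.19 ± 0.06 (limma adjusted p = 0.0356) and CTTN by 0.19 ± 0.05 (0.0123). The TPM1 call was lost without replicate 1 (0.0640) or 3 (0.129) of 48 h or replicate 1 (0.101) or 3 (0.0744) of 96 h, and the CTTN call without replicate 3 of 96 h (0.0600). In a fit of the siNC libraries alone neither passed (limma adjusted p = 0.139 for TPM1 and 0.0819 for CTTN), and TPM1 did not pass with no filter (0.0757). ACTB, at 0.10 ± 0.04 (limma adjusted p = 0.0754), passed without replicate 2 of 96 h (0.0454), but was -0.0675 under quantile normalization. ACTN4, at 0.10 ± 0.04 (limma adjusted p = 0.0836), passed with median centring (0.0392). The effect of siPDIA1 changed between 48 h and 96 h in 2 of the 7 genes, both downward, against 5.47% of all genes (2.50% upward and 2.97% downward). That of siPDIA5 changed in 4, all downward, against 18.3% of all genes (9.22% upward and 9.09% downward).

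Beyond these genes, 196 genes of the actin system were listed in 15 groups by role, of which 129 were tested. After siPDIA1, 38 rose and 16 fell at 48 h and 43 rose and 36 fell at 96 h. After siPDIA5, 38 rose and 28 fell at 48 h and 35 rose and 45 fell at 96 h. The called shares were 41.9% and 61.2% for siPDIA1 and 51.2% and 62.0% for siPDIA5, set against 33.4%, 45.3%, 45.8% and 51.1% of all genes. By direction, 16.0%, 20.1%, 16.6% and 20.8% of all genes rose, and 17.4%, 25.2%, 29.2% and 30.3% fell, in the same order. The counts of each group below stand against these shares. These lists too were chosen with earlier results of these data known.

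Of 14 tested exchange factors, GTPase-activating proteins and effectors of RAC1, 5 rose and 4 fell after siPDIA1 at 48 h and 4 rose and 3 fell at 96 h. After siPDIA5, 4 rose and 6 fell at 48 h and 0 rose and 7 fell at 96 h. In that last comparison 51.1% of all tested genes were called (20.8% higher and 30.3% lower), so the 7 of 14 called lay near that share. PAK1, a kinase bound by active RAC1, fell in all 4 comparisons, by 0.62 and 0.88 (log2) after siPDIA1 and by 0.72 and 0.81 after siPDIA5 (limma adjusted p = 1.16e-05, 1.53e-07, 1.31e-06 and 2.34e-07). PAK1 was low, with siNC means of 2.96 and 3.17 RPKM at 48 h and 96 h. RACGAP1, known for its work in cytokinesis, fell by 0.90 and 0.98 after siPDIA5 (limma adjusted p = 7.54e-08 and 1.50e-08). Other genes of this group rose. After siPDIA1, DOCK1 rose by 0.36 and 0.40 and ARHGEF7 by 0.34 and 0.44 (limma adjusted p = 0.00221, 0.000648, 0.00579 and 0.000501). VAV2 rose by 0.27 after siPDIA5 at 48 h (limma adjusted p = 0.00441).

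Of the 9 tested Arp2/3 subunits, 0 were called after siPDIA1 at 48 h, and 1 rose and 4 fell at 96 h. After siPDIA5, 1 rose and 2 fell at 48 h and 0 rose and 5 fell at 96 h. Over all tested genes, 33.4% and 45.3% were called after siPDIA1 and 45.8% and 51.1% after siPDIA5. ARPC3, one of these subunits, fell by 0.78 and 0.59 (log2) after siPDIA5 (limma adjusted p = 6.85e-08 and 8.75e-07). Of the 10 tested WAVE and WASP regulators, 3 rose and 2 fell after siPDIA1 at each time and 2 rose and 2 fell after siPDIA5 at each time. WASF3, a WAVE protein, fell by 1.36 and 1.36 after siPDIA1 (limma adjusted p = 2.04e-06 and 1.14e-06). Its siNC means were 6.43 and 5.18 RPKM at 48 h and 96 h. BRK1, of the same group, was more abundant, at 87.6 and 98.4 RPKM in siNC. BRK1 rose by 0.44 and 0.47 after siPDIA1 and by 0.23 and 0.23 after siPDIA5 (limma adjusted p = 3.79e-05, 1.40e-05, 0.00562 and 0.00479).

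Of 17 tested genes for monomer binding and filament severing, 8 rose and 1 fell after siPDIA1 at 48 h and 9 rose and 3 fell at 96 h. After siPDIA5, 7 rose and 2 fell at 48 h and 10 rose and 5 fell at 96 h. The shares called over all tested genes were 33.4% and 45.3% after siPDIA1 and 45.8% and 51.1% after siPDIA5. LIMK1, the kinase that switches cofilin off, rose by 0.96 and 1.12 (log2) after siPDIA1 and by 1.10 and 0.96 after siPDIA5 (limma adjusted p = 3.83e-09, 3.67e-10, 4.43e-10 and 1.01e-09). SSH3, of the phosphatase family that switches cofilin back on, rose as well, by 0.72 and 0.82 after siPDIA1 and siPDIA5 at 48 h (limma adjusted p = 1.80e-07 and 2.20e-08). TMSB4X, which holds actin monomers, rose by 1.26 and 1.05 after siPDIA1 and siPDIA5 at 96 h (limma adjusted p = 1.35e-06 and 6.29e-06). Its siNC mean there was 2.26 RPKM. Among more abundant genes of this group, PFN1 fell by 0.56 after siPDIA1 at 96 h (470 against 694 RPKM in siNC, limma adjusted p = 4.33e-06). TMSB10 fell by 0.73 after siPDIA5 at 96 h (163 against 273 RPKM, limma adjusted p = 5.37e-06). After siPDIA1 at 48 h TMSB10 rose by 0.37 (limma adjusted p = 0.00523).

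Of 16 tested contractile genes, 4 rose and 2 fell after siPDIA1 at 48 h and 4 rose and 6 fell at 96 h. After siPDIA5, 3 rose and 3 fell at 48 h and 3 rose and 6 fell at 96 h. Among all tested genes, 33.4% and 45.3% were called after siPDIA1 and 45.8% and 51.1% after siPDIA5. MYH9, a heavy chain of non-muscle myosin, rose by 0.61 and 0.78 (log2) after siPDIA1 and by 0.56 and 0.42 after siPDIA5 (limma adjusted p = 3.63e-06, 1.29e-07, 4.73e-06 and 6.06e-05). MYH10, another heavy chain, fell by 1.14 and 1.22 after siPDIA1 and by 0.26 and 0.36 after siPDIA5 (limma adjusted p = 2.35e-07, 6.06e-08, 0.0371 and 0.00535). CNN2, a calponin, fell by 1.0 after siPDIA5 at 96 h (limma adjusted p = 1.77e-07).

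Of 18 tested focal adhesion genes, 5 rose and 1 fell after siPDIA1 at 48 h and 5 rose and 5 fell at 96 h. After siPDIA5, 7 rose and 4 fell at 48 h and 6 rose and 4 fell at 96 h. For these and the groups that follow, the shares called over all tested genes were 33.4% and 45.3% after siPDIA1 and 45.8% and 51.1% after siPDIA5. LASP1, an actin-binding protein of adhesions, rose by 0.93 and 1.15 (log2) after siPDIA5 (limma adjusted p = 8.40e-08 and 4.31e-09), and its siPDIA1 differences of -0.08 and -0.18 did not pass (0.487 and 0.0578). VCL, which encodes vinculin, fell by 0.66 after siPDIA5 at 96 h (limma adjusted p = 7.84e-07). Among 11 tested crosslinkers, 5 rose and 0 fell, 6 rose and 2 fell, 4 rose and 3 fell and 4 rose and 6 fell, in the order siPDIA1 at 48 h and 96 h and siPDIA5 at 48 h and 96 h. FLNA, which encodes filamin A, fell by 0.66 after siPDIA5 at 96 h (limma adjusted p = 6.13e-07). Among 6 tested capping genes, ADD3, an adducin, moved in opposite directions: it fell by 1.13 and 1.01 after siPDIA1 and rose by 0.41 and 1.22 after siPDIA5 (limma adjusted p = 1.45e-07, 3.00e-07, 0.00175 and 2.17e-08).

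**Figure D5:**
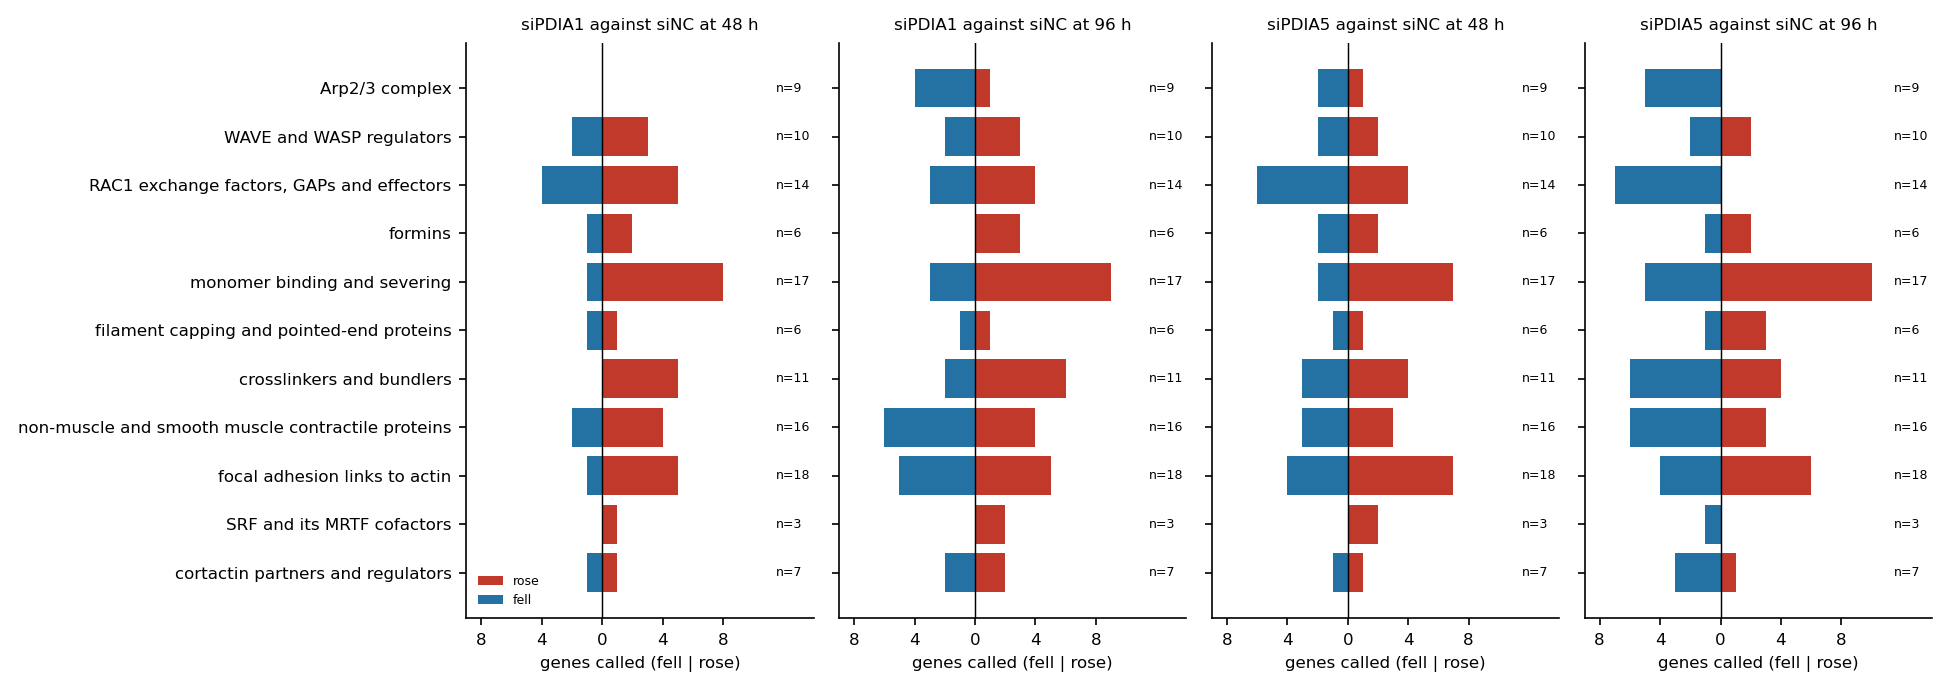
Number of genes called in groups of actin-related genes with at least 3 tested members (n, tested), with genes that rose to the right of 0 and genes that fell to the left, in the 4 comparisons with siNC. After siPDIA5 at 96 h, 0 of 14 RAC1 regulators and effectors rose and 7 fell, while 10 of 17 genes for monomer binding and severing rose and 5 fell; of all tested genes 20.8% rose and 30.3% fell there.

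The protein-coding genes whose pattern was most like that of TPM4 over the 18 libraries, out of 9995 compared, were TBC1D9B, DENND5A, OSBPL5, C1orf21 and CHST14. Their Pearson correlations of log2(RPKM + 1) with TPM4 were 0.987, 0.983, 0.983, 0.968 and 0.968. OSBPL5, of the oxysterol-binding protein family, had means of 5.55, 20.0 and 17.1 RPKM in siNC, siPDIA1 and siPDIA5 at 48 h and 6.51, 20.0 and 14.1 RPKM at 96 h, so that, as for TPM4, both knockdowns lay above siNC and siPDIA1 above siPDIA5 at each time. For ACTA2 the most alike were EEF2, QARS1, TOP1MT, CPNE1 and CAT, at 0.943, 0.936, 0.935, 0.932 and 0.924. EEF2, the translation elongation factor, ran from 1695 RPKM after siPDIA5 at 96 h to 2731 RPKM after siPDIA1 at 96 h, a narrower range than that of ACTA2. The points share group, time and library depth, and the correlations are given as a description.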

How the data were processed

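RNA-seq libraries of LNCaP cells (18, in 6 groups of 3 taken from the labels) were analysed. Per the labels' protocols, stranded polyA libraries were made with 15 amplification cycles. Tools listed in the submitters' processing notes, with no roles given, are STAR 2.7.0f and cutadapt 1.8, featureCounts, R 3.4.1 and DESeq2, and the build is GRCh38 (hg38). The authors deposited RPKM values per gene and library. The sources used here do not give their scaling total, annotation release, strand setting or handling of multi-mapping reads, so reads of pseudogenes, paralogs and overlapping genes may be counted for one of the 10 genes.

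Depth was estimated from the RPKM steps: RPKM times the GENCODE 29 exon length fell on whole reads (within 0.1 read, values of at most 20 reads) for 99.6% to 99.8% of values, giving 29.2 M to 43.9 M reads. Only the 36057 genes whose ID version matched that of GENCODE 29 were used for these estimates. These estimates entered no test. Of 59385 genes, 57074 had a GENCODE 29 ID without regard to version, from which coordinates on GRCh38 were taken.

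The deposited RPKM values were analysed as log2(RPKM + 1) with limma 3.58.1 (R 4.3.3): 6 group means, all 18 libraries, empirical Bayes with a trend, 11685 genes (mean RPKM not under 1), Benjamini-Hochberg adjustment over all of them and a call at 0.05. The procedure was tested on simulated data. Errors are SD over 3 libraries for RPKM and SE for log2 differences, and intervals are at 95%. P-values measure the spread between these libraries, which may be technical. TPM2 was fitted without the filter.

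The members, gene lists and tests were chosen with earlier results of these data known. Genes named are all members, both siRNA targets, per list and comparison with siNC up to 2 called genes with the largest rise and 2 with the largest fall, the 5 genes most correlated with TPM4 and with ACTA2, and cell type markers. Other values of genes so named are given for the remaining comparisons. ACTG2, overlapping genes and pseudogenes were added after their values were seen. No set test was run. The totals over the gene lists include 1 list that is not reported here. Alternatives were each library left out, the replicate number as a block, median centring, quantile normalization, a filter of 5 RPKM or none, a pseudocount of 0.25, a model without the other groups, one without the trend, and protein-coding genes alone. Promoter sequences are from RefSeq (GRCh38.p14).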

Additional observations from a re-analysis of the deposited data

Results flagged for a closer look

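The effect of an siRNA at 96 h was set against its effect at 48 h in 1 model term for each gene. For siPDIA1 this difference passed for ACTB at -0.36 (log2, limma adjusted p = 0.000700) and for CTTN at -0.28 (0.0275). For siPDIA5 it passed for TPM3 at -0.26 (limma adjusted p = 0.0116), for ACTB at -0.34 (0.000442), for ACTN1 at -0.31 (0.00673) and for CTTN at -0.44 (0.000567). All 6 differences were negative. Of all tested genes, 5.47% were called for siPDIA1 (2.50% upward and 2.97% downward) and 18.3% for siPDIA5 (9.22% upward and 9.09% downward). The CTTN call for siPDIA1 was lost in 8 alternative settings (limma adjusted p = 0.0524 to 0.0770). The ACTB call for siPDIA5 was lost with quantile normalization (0.0568). CTTN rose less at 96 h than at 48 h after both siRNAs, ACTN1 had risen after siPDIA5 at 48 h alone, and TPM3 lay farther below siNC at 96 h. ACTB lay above siNC at 48 h and below it at 96 h after both siRNAs, in 3 of 3 libraries each. Its 48 h difference did not pass for siPDIA1 (limma adjusted p = 0.270). For siPDIA5 the 48 h call (0.0128) was lost without siNC replicate 2 (0.0525), with no filter (0.0613) and with quantile normalization (0.430). ACTG1 fell at both times. The siNC libraries are shared by both knockdowns, so the results of the 2 siRNAs, among them those for ACTB and CTTN, are not independent.

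ACTA2 after siPDIA5 lay above siNC in all 3 libraries at 48 h and below it in all 3 at 96 h, a difference of -1.95 (log2) between the times. This difference was not tested, because ACTA2 was chosen knowing how it moved. The siNC level rose between the times from 1.82 ± 0.270 to 6.84 ± 0.0878 RPKM, while that of siPDIA5 went from 2.36 ± 0.0789 to 1.43 ± 0.267 RPKM (SD, n = 3).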

How the results depend on the processing

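Of the tested differences recomputed under each alternative, 974 kept their direction and their side of the threshold, 53 fell short of it, 6 newly passed and 26 turned sign, and no difference that turned sign had passed the test in either setting. The counts of called genes moved by over 1.5 times in 2 comparisons. For siNC at 96 h against 48 h the count of 2 became 1 with no filter and 0 in the model without the other groups, and ranged from 0 to 3 with 1 library left out. For the change of the siPDIA1 effect the count of 2 became 1 with no filter and 1 in the model without the other groups, and ranged from 1 to 2 with 1 library left out. The cause was not tested. By smaller steps, over the alternatives other than left-out libraries, the count of 7 for siPDIA1 at 96 h and for siPDIA5 at 48 h fell to as few as 5, the count of 3 between the knockdowns at 48 h ranged from 2 to 4, and that of 4 for the change of the siPDIA5 effect fell to 3 with quantile normalization. Left-out libraries gave counts of 4 for siPDIA1 at 48 h, 5 to 6 at 96 h, 5 to 7 for siPDIA5 at 48 h, 6 at 96 h, 2 to 4 and 5 to 7 between the knockdowns, and 4 for the change of the siPDIA5 effect. The sign turned as follows (log2). With a pseudocount of 0.25, the change of the siPDIA1 effect on TPM1 was -0.0013. With median centring, TPM3 after siPDIA1 at 48 h was 0.0034, ACTN1 after siPDIA5 at 96 h 0.0134, CTTN between the knockdowns at 48 h -0.0094, TPM3 and ACTN1 in siNC over time 0.0103 and 0.0161, and the change of the siPDIA5 effect on RAC1 -0.0379. With quantile normalization, TPM3 after siPDIA1 at 48 h was 0.0220, ACTN1 after siPDIA5 at 96 h 0.0301, ACTB between the knockdowns at 48 h 0.0674, and ACTB and ACTN1 in siNC over time -0.0675 and 0.0060. With 1 library left out, TPM3 after siPDIA1 at 48 h ranged from -0.0271 to 0.0222, TPM3 and ACTN1 in siNC over time from -0.0397 to 0.0091 and from -0.0353 to 0.0260, the change of the siPDIA1 effect on TPM1 from -0.0362 to 0.0629 and that of the siPDIA5 effect on RAC1 from -0.0178 to 0.0727. The described differences of TPM4 and ACTA2 from siNC kept their sign in all 16 settings: for ACTA2 after siPDIA5 at 48 h the range was 0.17 to 0.37. Libraries of the same replicate number did not deviate together (correlations of -0.12 to 0.14, of which 3 of 21 were over 0.1), so the numbers were not taken as pairs. With the replicate block, the ACTN4 call after siPDIA1 at 96 h was lost (limma adjusted p = 0.0556) and no other call of the 7 genes.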
